A study of Mus musculus with 24 samples.

Results

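In all, 6 genes for secreted chemokines were followed: Ccl1, Ccl3, Ccl4, Ccl5, Ccl9 and Xcl1. They were chosen by name, with earlier results of these data known, and all 6 were among the 9420 genes of the expression table. The cells were Th1 effector CD4+ T cells from DO11.10 mice, which carry a transgenic T cell receptor. All libraries share this strain and cell type, and the peripheral CD4+ cells had been isolated with beads against CD4. Cells were restimulated with antibodies to CD3, at 1 μg/ml, and to CD28, at 2.5 μg/ml, over a plate-bound anti-hamster antibody, and the 0 h libraries are the reference. RNA was read in 3 ways: as 4sU RNA, which holds transcripts made while the nucleoside 4-thiouridine was present, as total RNA, and by ribosome profiling (RP), which sequences the mRNA fragments that ribosomes cover.

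The 24 libraries fell into 16 groups. In 4sU RNA (200 μM 4sU, 1 h of labelling), the times 0, 1 and 4 h had 2 libraries, and replicate 1 also had a library at 2 h and one at 3 h. Total RNA had 2 libraries at 0 and 4 h, 1 at 1 h (replicate 2) and 1 at 2 h (replicate 1). For RP there were 2 libraries at 0, 1 and 4 h, and replicate 1 had a single library at 0.5 and at 2 h. A further pair of 4sU libraries, at 0 and 0.5 h, was labelled for 0.5 h with 500 μM 4sU and has no replicate. Nothing in the labels says that replicates are of separate mice or cultures, and the p-values then reflect the spread between libraries only, and this may be technical.

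Chemokines are small secreted proteins that bind G protein-coupled receptors and steer the migration of leukocytes along gradients. Activated T cells are a known source of Ccl3, Ccl4, Ccl5 and Xcl1, which recruit monocytes, T cells and, through Xcr1, cross-presenting dendritic cells. Ccl3 and Ccl4 are paralogs, Ccl1 is the ligand of Ccr8, and Ccl9 binds Ccr1.

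Markers of CD4+ Th1 cells were present in all libraries: 10 of 11 listed genes were in the table, and at 0 h in total RNA Cd4 stood at 127 and 82.4 FPKM (fragments per kilobase of gene, scaled to library size) in replicates 1 and 2. Their summed level in total RNA was 1258 and 1000.2 FPKM at 0 h and 8283 and 2538 at 4 h, and in 4sU RNA 996 and 909 at 0 h, 6100.25 and 1527 at 1 h and 8133 and 2914 at 4 h. The replicates thus stood apart in this list after restimulation, with the cytokine gene Ifng alone at 7340 and 1814 FPKM in total RNA at 4 h. They also stood apart in markers of CD8 T cells. All 7 of these markers were in the table, and their summed level in total RNA was 284 to 374 FPKM in the 3 libraries of replicate 1 and 30.1 to 47.1 in the 3 of replicate 2. In 4sU RNA the sums were 107 to 178 FPKM against 26.4 to 63.5, and in RP 846 to 1143 against 109 to 167. At 0 h in total RNA, Cd8a was at 23.5 and 3.78 FPKM, and the protease gene Gzma at 214.6 and 4.42. Gzma thus held most of the CD8 sum of 327 FPKM there in replicate 1, and 4.42 of 30.1 in replicate 2. The other listed cell types were thinly covered, with 2 of 8 genes for NK cells, 4 of 9 for macrophages, 4 of 9 for dendritic cells, 5 of 7 for B cells and 1 of 6 for mast cells in the table. The 5 B cell markers summed in replicate 1 to 14.8, 7.56 and 2.44 FPKM at 0, 2 and 4 h in total RNA, to 19.2 at 0 h and 1.89 at 4 h in 4sU RNA and to 65.6 and 6.57 in RP, so this sum fell as the chemokines climbed. In replicate 2 it was 3.15 and 2.62 in total RNA, 4.43 and 2.19 in 4sU RNA and 17.2 and 7.52 in RP at 0 and 4 h. The 4 dendritic cell markers summed to 99.9 FPKM at 0 h and 40.4 at 4 h in total RNA of replicate 1 and to 120.6 and 93.5 in replicate 2, to 162 and 78.5 against 531 and 324 in 4sU RNA, and to 427 and 139 against 455 and 248 in RP. In 4sU RNA at 0 h most of the dendritic cell sum was Ccr7, at 136 FPKM in replicate 1 and 520 in replicate 2. The other members there were Cd74 at 12.9 and 2.18 FPKM, H2-Aa at 5.72 and 0.43 and H2-Ab1 at 7.69 and 8.61. The higher 4sU sum of replicate 2 is thus that of Ccr7. The part of the B cell or the dendritic cell sum in the chemokine changes was not tested. Because replicate 1 and 2 libraries differ in this way, changes are given below within each replicate as well as over both. In bulk RNA, fewer cells of a type and less RNA per cell cannot be told apart.

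In GRCm38, 5 of the 6 genes lie on chromosome 11: Ccl1 (82176657 to 82305690), Ccl5 (83525778 to 83530518), Ccl9 (83572919 to 83578636) and Ccl3 (83647844 to 83649355) on the minus strand, and Ccl4 (83662584 to 83664683) on the plus strand. The gap between Ccl3 and Ccl4 is 13.2 kb, with no annotated coding gene between them. Ccl5 and Ccl9 are 42.4 kb apart, and the Ccl1 gene model ends 1220 kb from Ccl5. The RefSeq promoter window of Ccl1 (82179813 to 82179962) lies inside that model, so the gap from there is larger. Xcl1 is on chromosome 1 (164931644 to 164935527, minus strand). It shares 98 of its 523 exonic bases with the antisense gene Gm20743, and the strand setting of the read counting is not given in the sources used here, so reads from both genes cannot be told apart there. The Ccl1 gene model also holds a noncoding transcript of 11 exons: its summed exon length is 2369 bp, while the coding transcripts are 514 and 611 bp. An FPKM over the summed length therefore lies lower for Ccl1 than one over a coding transcript would.

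RefSeq promoter entries (GRCm38.p6) were at hand for Ccl1, Ccl3, Ccl9 and Xcl1. They are shown because these genes start from low levels and respond at different times, and the last 150 bases before the transcription start are given. Capitals mark motifs searched on both strands: the NFAT core GGAAA (61.34% of 32851 RefSeq promoter windows), the TATA box TATAAA (13.62%), the AP-1 site TGANTCA (7.81%), the cAMP response element TGACGTCA (1.79%) and the NF-kB consensus (8.46%). These shares are over whole windows, which are longer than the 150 bases shown and also run past the start. Shares for a stretch of 150 bases were not computed. The NFAT core can overlap the NF-kB consensus.

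Ccl3 (chr11:83649379-83649528, minus strand): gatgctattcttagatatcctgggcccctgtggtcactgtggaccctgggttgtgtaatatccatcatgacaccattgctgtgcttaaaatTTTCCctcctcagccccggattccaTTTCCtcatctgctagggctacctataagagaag
Ccl1 (chr11:82179813-82179962, minus strand): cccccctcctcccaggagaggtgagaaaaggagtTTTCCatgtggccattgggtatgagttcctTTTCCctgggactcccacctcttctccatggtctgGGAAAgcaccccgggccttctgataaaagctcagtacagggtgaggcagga
Xcl1 (chr1:164935523-164935672, minus strand): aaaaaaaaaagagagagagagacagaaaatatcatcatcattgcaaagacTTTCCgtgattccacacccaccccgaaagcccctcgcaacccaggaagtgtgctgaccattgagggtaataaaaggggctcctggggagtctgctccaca
Ccl9 (chr11:83578637-83578786, minus strand): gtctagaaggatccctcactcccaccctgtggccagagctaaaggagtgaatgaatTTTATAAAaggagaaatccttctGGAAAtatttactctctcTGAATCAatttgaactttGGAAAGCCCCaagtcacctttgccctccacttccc

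The NFAT core, the DNA element bound by the calcium-regulated factor NFAT, was found in all 4 windows, most often in Ccl1 with 3 copies in the stretch shown. Only the Ccl9 window held TATAAA and the AP-1 letters. The NF-kB consensus was found in Ccl9 (bases -35 to -26) and in Ccl1 (bases -196 to -187, outside the stretch shown). These matches are descriptions of the letters and not measured binding sites.

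AU-rich elements in the 3′ UTR, built on ATTTA, are known to mark short-lived cytokine mRNAs. Ccl3 and Ccl9 had 5 copies each, in 3′ UTRs of 409 and 2465 bases. Ccl4 had 2 in 302 bases, Xcl1 had 1 in 141, and Ccl1 and Ccl5 had 0 in 167 and 199. Of 9373 genes with an annotated 3′ UTR, 67.87% had at least 1 copy and 48.53% at least 2, with a median UTR of 1022 bases. The longer motif TTATTTATT was in none of the 6 genes and in 7.55% of all. The densest site of each gene is shown with ATTTA in capitals.

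Ccl3 (24 bases from base 186 of the 3′ UTR): ctATTTAattttgtaATTTAtttt
Ccl4 (24 bases from base 160 of the 3′ UTR): tattatttctattATTTAtgtttt
Xcl1 (24 bases from base 110 of the 3′ UTR): tgttataagtaataaatATTTAtt
Ccl9 (24 bases from base 2131 of the 3′ UTR): tctcATTTActgATTTAtgtatgt

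Ccl4, which attracts T cells and monocytes, was the highest of the 6 per length in all stimulated libraries. In 4sU RNA of replicate 1 it was at 23.3 FPKM at 0 h and at 2022, 2452, 1647 and 1776 at 1, 2, 3 and 4 h. In replicate 2 it was at 3.07 FPKM at 0 h, 249 at 1 h and 321 at 4 h. All stimulated libraries lay above both 0 h libraries, and the level of replicate 1 was 5.54 to 8.11 times that of replicate 2 at matched times.
The change of Ccl4 at 4 h was 6.25 ± 1.36 (SE, n = 2 and 2) on the log2(FPKM + 1) scale, the scale of all changes here, with a limma adjusted p of 0.0173. It was the largest change among the 9278 genes tested. Within the replicates it was 6.19 and 6.30. At 1 h the change of 6.16 ± 1.36 did not pass (limma adjusted p = 0.201), while with the replicate number as a block it did (7.41e-05 by limma).

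In total RNA, replicate 1 gave for Ccl4 7.63 FPKM at 0 h, 1119 at 2 h and 1529.8 at 4 h, and replicate 2 gave 1.86 at 0 h, 18.9 at 1 h and 192 at 4 h. The rise at 4 h was 6.77 ± 0.94 (limma adjusted p = 0.0108), 7.47 within replicate 1 and 6.08 within replicate 2. In RP, whose FPKM scale by coding length, Ccl4 was at 86.9, 407, 5629, 15567 and 11960.25 FPKM at 0, 0.5, 1, 2 and 4 h in replicate 1. Replicate 2 gave 17.9, 839.9 and 3307 FPKM at 0, 1 and 4 h. By rank it was the 8th most abundant of 9420 genes in the RP libraries of replicate 1 at 2 and 4 h and the 27th in replicate 2 at 4 h. The RP change at 4 h was 7.27 ± 1.18 (limma adjusted p = 0.0115).

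Ccl3, the close relative of Ccl4 and a ligand of Ccr1, followed a similar course at a lower level per length. Its 4sU values in replicate 1 were 4.40, 548, 593, 456 and 481 FPKM at 0, 1, 2, 3 and 4 h, and in replicate 2 they were 0.82, 84.6 and 107 at 0, 1 and 4 h. In total RNA it went from 1.27 FPKM to 336 at 2 h and 593 at 4 h in replicate 1, and from 1.07 to 9.58 at 1 h and 145 at 4 h in replicate 2. The table lists the same value, 592.71 FPKM, for Ccl3 in 4sU RNA at 2 h and in total RNA at 4 h of replicate 1. The 0 h value of replicate 2 stands for about 4.02 reads, by the depth that the steps between its low values imply.
In RP, Ccl3 was at 6.76, 43.5, 654, 1408 and 1757 FPKM at 0, 0.5, 1, 2 and 4 h in replicate 1 and at 0.81, 123 and 702 at 0, 1 and 4 h in replicate 2. By the implied depth, the RP values at 0 h stand for about 38.02 reads in replicate 1 and 1.99 in replicate 2. No 0 h library overlapped a library of 1 h or later in any of the 3 kinds. At 4 h Ccl3 rose by 6.19 ± 1.09 in 4sU RNA (limma adjusted p = 0.00945), by 7.09 ± 0.59 in total RNA (0.00464 by limma) and by 8.21 ± 1.02 in RP (0.00647 by limma). Its change in total RNA was the largest of 9078 genes. At 1 h the 4sU change of 6.11 ± 1.09 missed the threshold (limma adjusted p = 0.141) and passed with the block (7.41e-05 by limma).

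Xcl1, also called lymphotactin, is the ligand of Xcr1 on cross-presenting dendritic cells. Its 4sU levels were 0.27, 13.9, 19.6, 9.45 and 9.14 FPKM at 0, 1, 2, 3 and 4 h in replicate 1 and 0.27, 10.1 and 15.6 at 0, 1 and 4 h in replicate 2. In contrast to Ccl3 and Ccl4, the 2 replicates lay close together or replicate 2 was higher. Total RNA gave 0.29, 10.3 and 16.4 FPKM at 0, 2 and 4 h in replicate 1, and replicate 2 was listed at 0 at 0 h, with 2.08 at 1 h and 30.01 at 4 h. At the implied depth of that 0 h library, 3 reads would have been 1.17 FPKM. RP went from 0.57 FPKM at 0 h through 2.15, 25.4 and 110.02 at 0.5, 1 and 2 h to 129.5 at 4 h in replicate 1, and from 0.66 through 23.3 at 1 h to 268 at 4 h in replicate 2. The RP values at 0 h stand for about 3.97 reads in replicate 1 and 2.01 in replicate 2.
Xcl1 was the one member that passed at 1 h without the block. Its 4sU change was 3.34 ± 0.28 (limma adjusted p = 0.0260) and its RP change 3.97 ± 0.34 (limma adjusted p = 0.0344). At 4 h it rose by 3.35 ± 0.28 in 4sU RNA, by 4.36 ± 0.32 in total RNA and by 6.86 ± 0.34 in RP, with limma adjusted p of 0.00220, 0.00254 and 0.00175. Its 0 h levels lie below the added 1 FPKM: with a pseudocount of 0.1 the changes were 5.01 in 4sU RNA at 1 h, 5.02 at 4 h and 6.82 in total RNA at 4 h, and each passed. In RP it also rose between 1 and 4 h, by 2.89 ± 0.34 (limma adjusted p = 0.0125).

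Ccl1, the ligand of Ccr8, came later. In 4sU RNA it was at 0.01, 2.87, 22.4, 19.7 and 17.9 FPKM at 0, 1, 2, 3 and 4 h in replicate 1, and was listed at 0 at 0 h in replicate 2, with 0.26 at 1 h and 2.58 at 4 h. Total RNA was listed at 0 in both 0 h libraries and in the 1 h library, with 6.66 at 2 h and 7.80 at 4 h in replicate 1 and 3.63 at 4 h in replicate 2. In RP it was at 0.87, 0.77, 21.4, 340.2 and 324 FPKM at 0, 0.5, 1, 2 and 4 h in replicate 1, and listed at 0 at 0 h in replicate 2, with 5.57 at 1 h and 144 at 4 h. The RP value at 0 h of replicate 1 stands for about 6.03 reads. Both 4 h libraries lay above all libraries of 1 h or earlier in RP and in total RNA, and in 4sU RNA the 4 h library of replicate 2 (2.58) lay below the 1 h library of replicate 1 (2.87).
Ccl1 rose at 4 h in 4sU RNA by 3.03 ± 0.84 (limma adjusted p = 0.0366), in total RNA by 2.67 ± 0.32 (0.00795 by limma) and in RP by 7.31 ± 0.69 (0.00465 by limma). Where the reference is listed at 0, these changes depend on the added 1 FPKM and are not fold changes: with a pseudocount of 0.1 they were 6.05 in 4sU RNA, 5.76 in total RNA and 9.44 in RP at 4 h. Between 1 and 4 h it rose by 4.16 ± 0.69 in RP (limma adjusted p = 0.0196), the 4th largest change of 9312 genes, and with a pseudocount of 0.1 this change no longer passed (limma adjusted p = 0.0629).

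Ccl9, a ligand of Ccr1 made mainly by myeloid cells, had the lowest mean over libraries in each kind, at 0.958 FPKM in 4sU RNA, 0.618 in total RNA and 4.98 in RP. In single libraries others were lower, such as Ccl1 (0.77) and Xcl1 (2.15) in RP at 0.5 h. Its 4sU levels were 0.08, 0.23, 1.08, 2.44 and 3.01 FPKM at 0 to 4 h in replicate 1, and in replicate 2 it was listed at 0 at 0 and 1 h and reached 0.82 at 4 h. In total RNA it was at 0.12, 0.38 and 2.45 FPKM at 0, 2 and 4 h in replicate 1, and in replicate 2 it was listed at 0 at 0 and 1 h and at 0.76 at 4 h. Its mean was below the filter of 1 FPKM in both kinds, so with the filter it was tested in RP alone. Without the filter it passed in 4sU RNA at 4 h (1.38 ± 0.38, limma adjusted p = 0.0359). In total RNA at 4 h it did not pass without the filter (1.22 ± 0.34, limma adjusted p = 0.0612).
The RP levels of Ccl9 were 0.81, 3.30, 0.82, 5.37 and 20.1 FPKM at 0, 0.5, 1, 2 and 4 h in replicate 1 and 0.31, 0.76 and 8.37 at 0, 1 and 4 h in replicate 2. The 4 h libraries were the highest of their replicates, and the 0.5 h library lay above both libraries at 1 h. The rise at 4 h was 3.19 ± 0.41 against 0 h (limma adjusted p = 0.00685) and 2.97 ± 0.41 against 1 h (0.0141 by limma).

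Ccl5, also called RANTES, is known to be held as mRNA by memory T cells before stimulation. In total RNA it was the highest member per length at 0 h, with 11.4 and 2.13 FPKM, or 55.1% and 42.1% of the summed FPKM of the 6 genes. In replicate 2 its lead over Ccl4 rests on about 10.02 against 6.02 reads. It stood at 15.2 FPKM at 2 h and 16.9 at 4 h in replicate 1, and at 0.85 at 1 h and 3.27 at 4 h in replicate 2. In 4sU RNA it was at 5.22, 10.5, 9.94, 11.2 and 9.73 FPKM at 0 to 4 h in replicate 1 and at 1.53, 1.74 and 2.32 at 0, 1 and 4 h in replicate 2.
RP gave 52.6, 57.3, 62.2, 104.7 and 119.9 FPKM at 0, 0.5, 1, 2 and 4 h in replicate 1 and 7.80, 6.32 and 35.7 at 0, 1 and 4 h in replicate 2. In each kind the 0 h library of replicate 1 lay above the 4 h library of replicate 2, so the groups overlapped. Ccl5 passed no test without the block: its changes at 4 h were 0.59 ± 0.86 in 4sU RNA, 0.49 ± 0.80 in total RNA and 1.62 ± 1.29 in RP, with limma adjusted p of 0.622, 0.718 and 0.388. With the block the same changes passed in 4sU RNA (limma adjusted p = 0.0325) and RP (0.00564 by limma) and not in total RNA (0.0658 by limma), in fits that called 23.3%, 21.3% and 16.6% of genes higher.

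**Figure D1:**
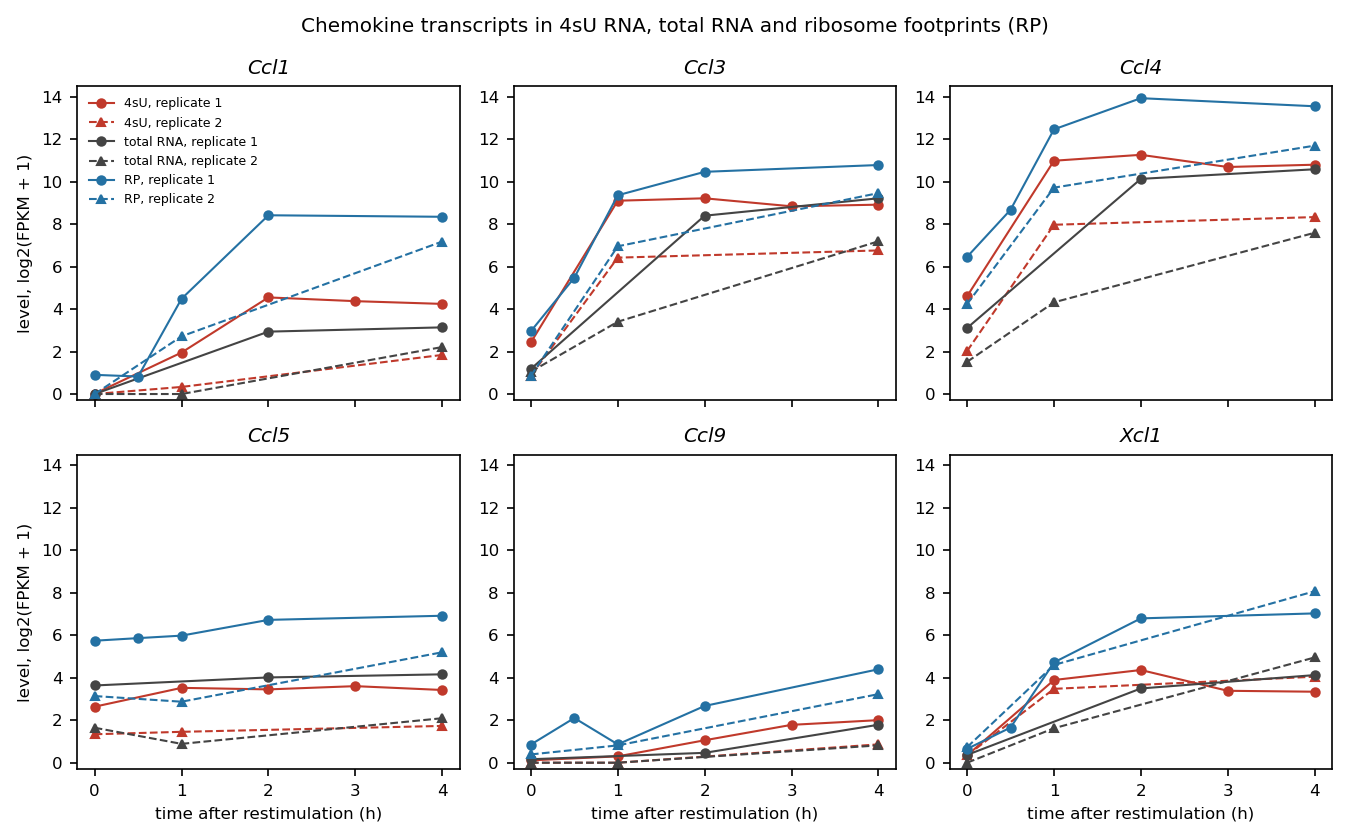
Level of each chemokine gene as log2(FPKM + 1) against hours after restimulation, in 4sU RNA (red), total RNA (grey) and RP (blue), with replicate 1 as circles on solid lines and replicate 2 as triangles on dashed lines, 1 point per library. Ccl3 and Ccl4 are near their 4 h 4sU level at 1 h, Ccl1 and Ccl9 climb later, Ccl5 lies above its 0 h level at 4 h in each kind and replicate, and the dashed lines lie below the solid ones for most genes but not for Xcl1.

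Of the 5 members tested in 4sU RNA at 4 h, 4 rose (Ccl1, Ccl3, Ccl4 and Xcl1), beside 14.4% of the 9278 genes tested that were higher and 18.9% that were lower. In total RNA at 4 h the count was also 4 of 5, against 6.47% of 9078 genes higher and 7.02% lower, and in RP at 4 h it was 5 of 6, against 12.1% of 9312 genes higher and 12.9% lower. None fell. At 1 h 1 of 5 rose in 4sU RNA, against 0.183% of genes, and 1 of 6 in RP, against 0.14%. With the block these 1 h counts were 3 (Ccl3, Ccl4 and Xcl1, background 5.21%) and 4 (those and Ccl1, background 1.42%). Because the members were chosen with earlier results of these data known, all these counts are descriptions and not a test of the set.
Total RNA at 1 h, with 1 library, had 0 of 5 called by limma, as had all 9078 genes (0%), with 1197 genes at an unadjusted p under 0.05, Ccl3 and Xcl1 among them. The block called Ccl3, Ccl4 and Xcl1 there, on 1 residual degree of freedom and against 1.43% of genes called higher.
Leaving out 1 library at a time kept all 4 calls in total RNA at 4 h. In RP at 4 h, 3 to 5 members remained called, with 3 without replicate 1 at 4 h. In 4sU RNA at 4 h, 2 were called without replicate 1 at 4 h and 1 without replicate 2 at 0 h. At 1 h the single 4sU call was lost without either 0 h library or without replicate 1 at 1 h, and the single RP call was lost without any 1 of its 4 libraries.

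**Figure D2:**
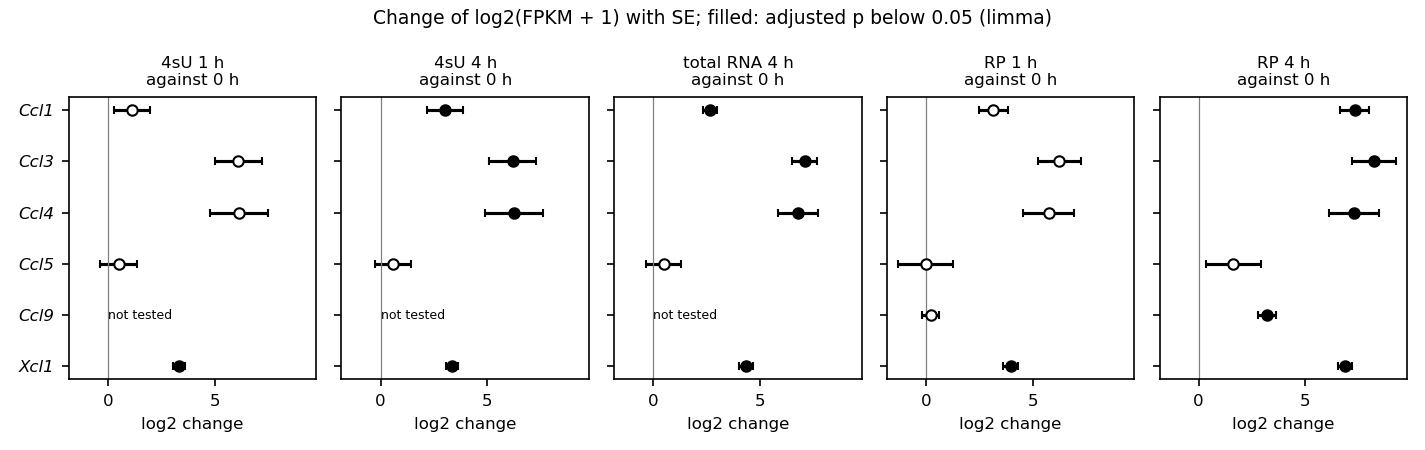
Change of each gene on the log2(FPKM + 1) scale with its SE in 5 comparisons against 0 h, with 2 libraries in each group, where filled points passed a limma adjusted p of 0.05. Ccl3 and Ccl4 have large changes with wide errors at 1 h, Xcl1 has a narrower error in each panel, and Ccl5 is open throughout.

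The intermediate times rest on 1 library each, whose spread was taken from the replicated groups. At 2 h in 4sU RNA 3 of 5 members rose (Ccl3, Ccl4 and Xcl1), against 3.87% of genes, and at 3 h 4 of 5, against 9.41%. With the block Ccl1 also passed at 2 h (3.87 ± 0.60, limma adjusted p = 0.00389, against 13.3% of genes called higher) and Ccl5 at 3 h (0.77 ± 0.25, limma adjusted p = 0.0406, against 17.8%). Without replicate 1 or replicate 2 at 0 h, 0 were called at 2 h, and 1 and 0 at 3 h. Total RNA at 2 h had 4 of 5 called, against 0.958% of genes, with 3 without replicate 1 at 0 h and 1 without replicate 2 at 0 h. RP at 2 h had 4 of 6 called (Ccl1, Ccl3, Ccl4 and Xcl1), against 2.96%, and 0 without either 0 h library. With the block Ccl9 passed too (1.77 ± 0.36, limma adjusted p = 0.0197, against 9.53%).
RP at 0.5 h had 0 of 6 called by limma, like all genes (0%), with 743 of 9312 genes at an unadjusted p under 0.05. Ccl3 (3.57 ± 1.25) and Ccl9 (1.48 ± 0.50) were among these 743. The 0.5 h library is of replicate 1, and within that replicate the changes were 2.52 for Ccl3 and 1.25 for Ccl9. In the pair labelled for 0.5 h, Ccl4 went from 3.05 to 55.3 FPKM and Ccl3 from 0.88 to 16.2. Both were past 2-fold on the log2(FPKM + 1) scale, as were 0.669% of 9420 genes. Ccl5 (3.92 to 7.57 FPKM) and Xcl1 (0.51 to 0.90) were not, Ccl1 was listed at 0 and then at 0.07, and Ccl9 at 0 in both.

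The members differed in how early each kind of library reached its 4 h level. At 1 h, 4sU RNA of Ccl4 stood at 113.9% and 77.8% of the 4 h level of the same replicate, and Ccl3 at 113.8% and 78.9%. Xcl1 stood at 152% and 65.2%, and its replicate 1 stood at 214% at 2 h and 103% at 3 h. For Ccl1 the 1 h values were 16.0% and 10.1%.
RP stood lower at 1 h relative to its own 4 h level: Ccl4 had 47.1% and 25.4% of its 4 h level, Ccl3 37.2% and 17.5%, Xcl1 19.6% and 8.68%, and Ccl1 6.60% and 3.88%. Total RNA at 1 h, in replicate 2, was at 9.87% for Ccl4, 6.61% for Ccl3 and 6.93% for Xcl1. At 2 h total RNA of replicate 1 had 73.1% for Ccl4, 56.6% for Ccl3, 62.5% for Xcl1 and 85.4% for Ccl1. A 4sU library collects RNA over the labelling hour, so its time points are not instants.
Between 1 and 4 h, 0 of 5 members were called in 4sU RNA by limma, while 11.9% of genes were called higher. The changes were 0.09 ± 1.36 for Ccl4 and 0.01 ± 0.28 for Xcl1, and Ccl1 (1.90 ± 0.84) passed with the block (limma adjusted p = 0.0103), which called 22% of genes higher. In RP 3 of 6 rose over this interval (Ccl1, Ccl9 and Xcl1), against 7.65% of genes, and all 6 were called with the block, against 17.5%. Leaving out any 1 of the RP libraries at 1 or 4 h left 0 or 1 called, with 1 without replicate 1 at 1 h, and in 4sU RNA 1 was called without replicate 2 at 4 h.

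**Figure D3:**
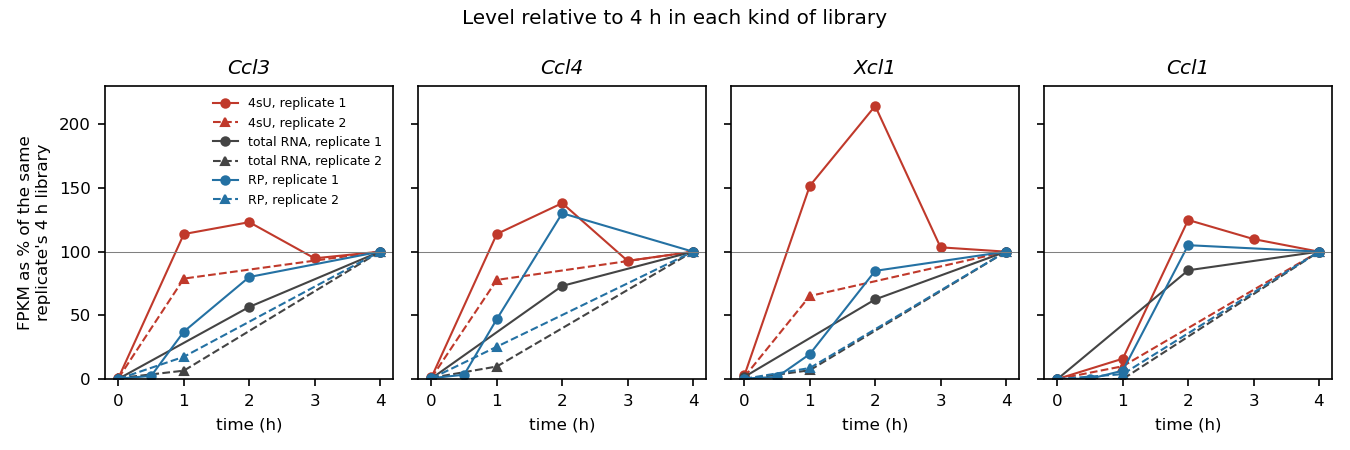
FPKM as a percentage of the 4 h library of the same replicate and kind, against hours after restimulation, for Ccl3, Ccl4, Xcl1 and Ccl1, with colours and symbols as in the plot of levels. The red 4sU lines of Ccl3, Ccl4 and Xcl1 are at 65.2% or more at 1 h, while blue RP and grey total RNA points at 1 h lie at 47.1% or less, and no measured Ccl1 point is above 16.0% at that time.

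Differences between kinds of library were tested as contrasts of the changes. No member and no gene passed without the block in any of the 4 contrasts (0% called), with 241 genes at an unadjusted p under 0.05 for RP against total RNA at 4 h, 526 for 4sU against total RNA at 4 h, 227 for RP against 4sU at 1 h and 633 for RP against 4sU at 4 h. The RP change of Ccl1 at 4 h exceeded its total RNA change by 4.63 ± 0.88 (limma adjusted p = 0.504), the largest of 9021 genes, and passed with the block (0.0113 by limma), where 0.0222% of genes were called higher. With a pseudocount of 0.1 the difference for Ccl1 was 3.67 (limma adjusted p = 0.9996). For Xcl1 this difference was 2.50 ± 0.52 (limma adjusted p = 0.755, and 0.160 with the block), and with a pseudocount of 0.1 it was 1.21 (limma adjusted p = 0.9996).
Against 4sU RNA at 4 h, the RP change was larger by 4.27 ± 1.22 for Ccl1 (limma adjusted p = 0.624, and 0.0495 with the block) and by 3.51 ± 0.48 for Xcl1 (limma adjusted p = 0.15, and 0.0227 with the block). The block called 0.0435% of genes higher in that contrast. With a pseudocount of 0.1 the differences were 3.39 for Ccl1 (limma adjusted p = 0.791) and 3.01 for Xcl1 (0.373 by limma). Leaving out 1 library at a time, the difference for Xcl1 ranged from 2.99 to 4.03. It passed in 1 of these 8 fits, the one without replicate 1 of RP at 4 h. The 0 h levels of Ccl1 lie below the added 1 FPKM in each kind. With a pseudocount of 0.1 its change at 4 h went from 3.03 to 6.05 in 4sU RNA. It went from 2.67 to 5.76 in total RNA and from 7.31 to 9.44 in RP.

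The RP level over the total RNA level is given within each library pair, beside the median over genes. Both levels are FPKM, over different lengths. At 4 h this ratio was 41.5 and 39.6 for Ccl1 in replicates 1 and 2, against a median over genes of 2.63 and 2.89, at percentiles 99.7 and 99.6. The RP coding length of Ccl1 is 340 bp while its summed exon length is 2369 bp, so its ratio carries the noncoding transcript noted above, and the part of the length in the ratio was not tested. Ccl4 had ratios of 7.82 and 17.2, Xcl1 7.88 and 8.94, Ccl5 7.11 and 10.9, and Ccl3 2.97 and 4.85. Their summed exon and coding lengths also differ, at 660 and 276 bp for Ccl4, 523 and 342 bp for Xcl1, 960 and 273 bp for Ccl5 and 766 and 276 bp for Ccl3, so no order between genes is read from these ratios.
The ratio of 4sU to total RNA was low for Ccl5, at 0.457 and 0.718 at 0 h and 0.576 and 0.709 at 4 h, against medians of 1.45 and 1.59 at 0 h and 1.37 and 1.53 at 4 h. Xcl1, at 0.556 and 0.518, and Ccl3, at 0.812 and 0.740, were also below the median at 4 h. For Ccl4 at 4 h the values were 1.16 and 1.67, on either side of the median.

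The make-up of the chemokine pool differed between 0 and 4 h. Of the summed FPKM of the 6 genes in 4sU RNA, Ccl4 held 70.0% and 54.0% at 0 h and 77.3% and 71.4% at 4 h. In total RNA it held 36.8% in both replicates at 0 h and 70.6% and 51.2% at 4 h, while Ccl5 held 0.779% and 0.873% at 4 h. Xcl1 made up 8.02% of the total RNA sum at 4 h in replicate 2 and 0.759% in replicate 1. The level of Ccl4 over that of Ccl3 in total RNA at 4 h was 2.58 in replicate 1 and 1.32 in replicate 2, and in 4sU RNA 3.69 and 2.99.

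Replicate 1 was above replicate 2 for Ccl3, Ccl4 and Ccl5 in all 8 replicated groups. So it was for Ccl9, with values under 1 FPKM in many of them. For Ccl1 it was so in each group but total RNA at 0 h, where both libraries were listed at 0. The ratio of replicate 1 to 2 was 3.62 to 8.11 for Ccl4, 3.36 to 9.84 for Ccl5 and 1.19 to 8.35 for Ccl3. For Ccl4 at most 0.796% of all genes had a larger difference in the same direction in any of the 8 groups. Xcl1 went the other way at 4 h, with ratios of 0.588 in 4sU RNA, 0.548 in total RNA and 0.483 in RP. The summed CD8 T cell markers and the summed Th1 markers were higher in replicate 1 in the same 8 groups. In replicates 1 and 2, Ifng alone held 7340 and 1814 FPKM of the Th1 sums of 8283 and 2538 in total RNA at 4 h. Other Th1 members went either way. In total RNA at 0 h Cd4 was at 127 and 82.4 FPKM, Cd3e at 57.8 and 95.4 and Il12rb2 at 28.5 and 51.5. Among the 7 CD8 markers, Eomes was lower in replicate 1 at 4 h in each kind. Its levels there were 14.4 and 37.1 FPKM in 4sU RNA, 6.62 and 13.8 in total RNA and 11.2 and 33.9 in RP. At 0 h it was at 0.66 and 0.79 in total RNA and at 2.15 and 1.80 in RP. The part of the marker sums in the chemokine levels was not tested. The changes at 4 h within replicate 2 alone, whose CD8 sums were the lower ones, were 5.90, 6.14 and 8.60 for Ccl3 and 6.30, 6.08 and 7.45 for Ccl4 in 4sU RNA, total RNA and RP, against 6.48, 8.03 and 7.82 and 6.19, 7.47 and 7.09 within replicate 1. The RP change of Ccl3 in replicate 2 starts from a 0 h value of about 1.99 reads.

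**Figure D4:**
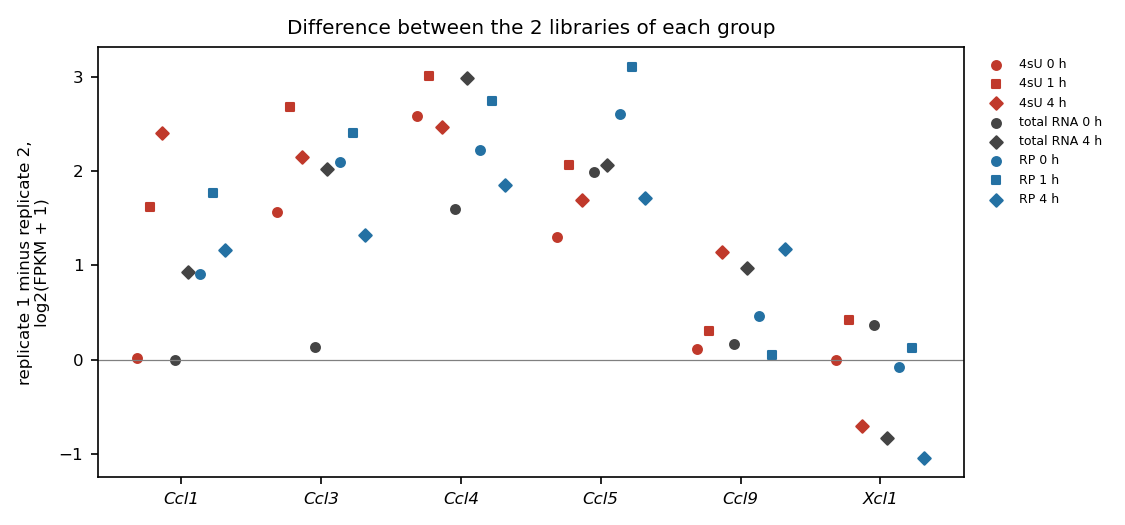
Difference between replicate 1 and replicate 2 on the log2(FPKM + 1) scale for each gene in the 8 groups with 2 libraries (red 4sU, grey total RNA, blue RP; circles 0 h, squares 1 h, diamonds 4 h). Ccl3, Ccl4, Ccl5 and Ccl9 lie above 0 in each group, up to 3.11, Ccl1 lies at or above 0, and the 3 diamonds of Xcl1 lie below 0.

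The genes most like each member were found by Pearson r over 22 libraries, each kind of library centred on its own mean, across 8831 other genes. These r describe libraries that share time points and replicates, and carry no test. Ccl3 and Ccl4 were each other's nearest (r = 0.991), followed by Ifng and Il3 for Ccl3 (0.988 and 0.975) and Gadd45b and Ifng for Ccl4 (0.983 and 0.979). Xcl1 was nearest to the cytokines Csf2 (0.966) and Il3 (0.95) and to Srfbp1 (0.938). Ccl1 was nearest to Il4 (0.976), Il17a (0.965) and Polr1c (0.931). For Ccl5 the nearest were Myb (0.94), Tmem176b (0.939) and Prdm1 (0.937), and for Ccl9 they were Ece2 (0.934), Farsa (0.928) and Cebpz (0.926).

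Of the 8 listed receptors of these chemokines, 4 were in the table. Ccr8, the receptor of Ccl1, was at 3.40 and 6.22 FPKM at 0 h in 4sU RNA, 17.4 and 34.1 at 1 h and 17.4 and 25.4 at 4 h. The 4 h libraries lay above the 0 h libraries in each kind, and Ccr8 rose by 1.97 ± 0.39 in 4sU RNA, 1.58 ± 0.36 in total RNA and 1.86 ± 0.48 in RP (limma adjusted p of 0.0135, 0.0336 and 0.0402). It was the 1 receptor called, of 4 tested in 4sU RNA and RP and 3 in total RNA, beside 14.4%, 12.1% and 6.47% of all genes called higher.
Of 32 other chemokine ligands listed, Ccl22 and Cxcl10 were in the table and neither was called. In total RNA at 4 h Ccl22 changed from 0.74 and 1.76 FPKM to 3.19 and 4.05, a difference of 1.07 ± 0.28 (limma adjusted p = 0.0517).

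Downstream of the receptors, of 34 genes of chemokine receptor signalling tested in 4sU RNA at 4 h, 1 rose and 5 fell, beside 14.4% of all genes called higher and 18.9% lower, with a median of -0.38 beside -0.16 over all genes. Prex1, an exchange factor for Rac, changed by -1.53 ± 0.27 (limma adjusted p = 0.00929) and Wasf2, an actin regulator, by -0.88 ± 0.20 (0.0203 by limma). In RP at 4 h 1 of 33 rose and 3 fell, beside 12.1% of all genes higher and 12.9% lower (median -0.35 beside -0.10). In total RNA 1 of 33 rose and 2 fell, beside 6.47% and 7.02% (median -0.27 beside -0.10). In each kind both shares of this list were below those over all genes.
Of 12 genes of receptor desensitisation, 3 rose and 3 fell in 4sU RNA at 4 h (median -0.42 beside -0.16), 3 rose and 1 fell in total RNA (median -0.45), and 3 rose and 2 fell in RP (median -0.27), beside the same shares of all genes called as for the signalling list. The 3 that rose in each kind were Rgs16, Rgs1 and Rgs2, which speed the shut-off of G protein signals. Rgs16 went from 2.68 and 3.35 FPKM to 130.4 and 86.2 in 4sU RNA (4.74 ± 0.41, limma adjusted p = 0.00220), and Rgs1 from 59.0 and 38.9 to 409 and 304 (2.85 ± 0.53, 0.0110 by limma). Rgs3 changed by -1.28 ± 0.18 (limma adjusted p = 0.00510) and the receptor kinase gene Grk2 by -1.02 ± 0.28 (0.0353 by limma). In RP the called decreases were those of Grk6 (-1.25 ± 0.26, limma adjusted p = 0.0211) and Rgs14 (-1.08 ± 0.17, 0.0111 by limma).
Of 9 proteoglycans and proteases that bind or cut chemokines, Dpp4, a protease that trims chemokine N-termini, was the 1 called in 4sU RNA, from 9.38 and 14.1 FPKM to 2.01 and 3.73 (-1.73 ± 0.38, limma adjusted p = 0.0187), where 18.9% of all genes were called lower. It was also called lower in total RNA (-0.86 ± 0.22, limma adjusted p = 0.0439, beside 7.02% of all genes), and 0 of 9 were called in RP, where Sdc4 had the largest change (1.11 ± 0.59, limma adjusted p = 0.216). At 1 h in 4sU RNA, 0 genes of these 5 lists were called by limma. The largest values there were 3.17 ± 0.41 for Rgs16 (limma adjusted p = 0.0771), 2.17 ± 0.39 for Ccr8 (0.148), 2.03 ± 0.56 for Furin (0.246), 0.84 ± 0.22 for Gnaq (0.225) and 0.62 ± 0.49 for Cxcl10 (0.630).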

How the data were processed

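The deposited table gives FPKM values per gene that the authors made from their reads. The submitters' processing notes name featureCounts, Subread 1.4.6-p3 and GRCm38, while the aligner, annotation, gene lengths and strand setting were not given in the sources used here. Low values stepped by whole reads over coding lengths in 7 of 8 RP libraries and over summed exon lengths in 2 of the 16 others. Read totals and lengths were resolved in those 9, depth is unknown in the rest, and summed exon lengths are taken for the other RNA libraries without a check of their own. Gene symbols were found for 9412 of 9420 identifiers, and positions are from GENCODE M21 on GRCm38.

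Changes were tested on log2(FPKM + 1) with limma 3.58.1 in R 4.3.3 (moderated with a trend, Benjamini-Hochberg adjusted over all genes tested, threshold 0.05), for genes with a mean of at least 1 FPKM in the kind of library. Each kind was fitted over all its libraries with 1 mean per group, and contrasts between kinds over both kinds together. The short-label pair has no test. The fit was tested on simulated data. Same-numbered libraries deviated together in all 28 pairs of replicated groups (r of 0.307 to 0.79, above 0.1), so calls of the members with the replicate number as a block are given where they differ. The numbers come from the sample labels, which do not say what a number marks. Alternatives were a pseudocount of 0.1, no filter, median-of-ratios scaling, the block and leaving out each library.

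The members and gene lists were chosen with earlier results of these data known. Named genes are the members, up to 2 called genes per direction of each list in 4 comparisons (or the largest change where none was called), and the 3 genes most like each member, leaving out predicted and unnamed gene models. Results on 2 genes of the receptor and signalling lists are not reported here.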

Additional observations from a re-analysis of the deposited data

How the results depend on the processing

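With the replicate block, a term for the replicate number, the count of members called went from 1 to 3 in 4sU RNA at 1 h, from 0 to 1 in 4sU RNA at 4 h against 1 h, from 0 to 3 in total RNA at 1 h, from 1 to 4 in RP at 1 h and from 3 to 6 in RP at 4 h against 1 h. It went from 0 to 1 for the RP change minus the total RNA change and from 0 to 2 for the RP change minus the 4sU change at 4 h. Of 90 member changes under the block, 68 kept direction and call, 20 now passed and 2 turned (Ccl1 in RP at 0.5 h, -0.27, and in total RNA at 1 h, 0.23 where it had been 0). The pseudocount of 0.1 kept 87 of 90, the exceptions being Ccl1, which passed in 4sU RNA at 2 h (7.74), no longer passed in RP at 4 h against 1 h (4.29) and stayed at 0 in total RNA at 1 h. Dropping the filter kept all 90. Median-of-ratios scaling moved the median of all genes by 0.151 in 4sU RNA at 4 h and kept 89, with Ccl5 in RP at 1 h turning to 0.04.

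Leaving out 1 library at a time gave 0 to 1 members called in 4sU RNA at 1 h, 1 to 4 at 4 h, 0 to 1 at 4 h against 1 h, 0 to 0 at 2 h and 0 to 1 at 3 h, 4 to 4 in total RNA at 4 h and 1 to 3 at 2 h, 0 to 0 in RP at 1 h and at 2 h, 3 to 5 at 4 h and 0 to 1 at 4 h against 1 h, and 0 to 1 for the RP change minus the 4sU change at 4 h. Changes that turned sign in these fits, none of them called in the fit to all libraries, ranged as follows. For Ccl5 they were -0.53 to 1.54 in 4sU RNA at 1 h, -0.26 to 1.44 at 4 h, -0.95 to 1.12 at 4 h against 1 h, -0.55 to 1.52 in total RNA at 4 h and -1.57 to 1.54 in RP at 1 h. For 4sU RNA at 4 h against 1 h they were -1.26 to 1.42 for Ccl3, -1.42 to 1.59 for Ccl4 and -0.34 to 0.36 for Xcl1. In RP, Ccl9 at 1 h ranged from -0.016 to 0.45 and Ccl1 at 0.5 h from -0.079 to 0.82. For the RP change minus the total RNA change at 4 h they were -0.996 to 1.99 for Ccl4 and -0.17 to 2.44 for Ccl5. For the 4sU change minus the total RNA change at 4 h they were -2.02 to 0.97 for Ccl4, -0.84 to 1.56 for Ccl1, -0.93 to 1.14 for Ccl5 and -1.98 to 0.18 for Ccl3. For the RP change minus the 4sU change they were -1.20 to 1.48 for Ccl3, -1.93 to 1.09 for Ccl4 and -2.07 to 1.04 for Ccl5 at 1 h, and -0.27 to 2.32 for Ccl4 and -0.27 to 2.33 for Ccl5 at 4 h. The cause was not tested. Where only 1 library is left in a group, it is assumed to vary like the other groups. Depth limits the low values: in total RNA at 0 h in replicate 2, 3 reads would be 0.258 FPKM for Ccl1, 0.201 for Ccl9 and 1.17 for Xcl1. In RP at 0 h in replicate 2, 3 reads would be 0.989 FPKM for Ccl1, 1.22 for Ccl3, 0.919 for Ccl9 and 0.983 for Xcl1. The listed values of these genes there lie below that.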
